A study of Mus musculus with 4 samples.

Results

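The genes of MHC class II antigen presentation were 10 of the 31053 genes in the deposited matrices and were chosen by symbol. They were H2-Aa, H2-Ab1 and H2-Eb1, the chains of the classical class II molecules; Cd74, the invariant chain; H2-DMa, H2-DMb1 and H2-DMb2, the subunits of the peptide editor DM; H2-Oa and H2-Ob, the subunits of its inhibitor DO; and Ciita, the transactivator. All 10 were among the 20307 genes with at least 1 UMI (unique molecular identifier, the tag that marks 1 captured transcript) in the cells kept. The cells were bone marrow mononuclear cells (BMNCs) of C57BL/6 mice, flushed from femur and tibia and separated on Ficoll, and 1 library of the 5′ ends of transcripts was made from each of 2 TLR9-/- and 2 WT mice. TLR9-/- mice lack the endosomal receptor for unmethylated CpG DNA in every cell, so an effect within a cell class and one that came from other cells of the animal cannot be told apart. The labels give no age, sex or treatment. Per the study's methods the libraries came from 2 experiments, each with 1 mouse of either genotype, and the labels do not tie the replicate numbers to these experiments.

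A class II molecule is an alpha and a beta chain that assemble in the endoplasmic reticulum around the invariant chain Cd74. Cd74 blocks the groove and steers the complex to endosomes, where cathepsins trim it and DM exchanges its last fragment for a peptide, while DO holds DM back. B cells, dendritic cells and macrophages carry the molecules constitutively, and Ciita, which binds no DNA itself, switches the genes on by docking to the factors assembled on their shared promoter boxes. C57BL/6 mice carry no functional E alpha chain, so their H2-Eb1 transcript gives no surface I-E molecule, and I-A (H2-Aa with H2-Ab1) is their class II molecule.

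The 4 libraries kept 39167 of 40545 cells and between 31210188 and 63958243 UMIs each, with median UMIs per cell from 1759 to 3618, and both TLR9-/- libraries were deeper than both WT libraries. Any pair of libraries shared 112 to 185 cell barcodes, or 1.26% to 1.75% of the smaller library. Tlr9 had 41 and 48 UMIs (0.817 and 0.750 CPM) in TLR9-/- mice but 120 and 97 UMIs (3.84 and 2.34 CPM) in WT mice; the labels do not say which part of the gene was deleted. Cells were sorted into 21 classes by gates on the transcripts of other genes, none of them among the 10 genes, and 33601 cells (85.8%) entered one. Mature B cells, for instance, needed Ighd with Ms4a1, Fcer2a or Cr2, immature B cells Ms4a1 without Ighd, and small pre-B cells neither of these nor the surrogate light chain genes. Levels are given as CPM, which divides the UMIs of a gene by all UMIs of that class in that library and scales them to a common total.

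Of the 10 genes, 8 lie within 1 stretch of chromosome 17 (GRCm38 coordinates of the GENCODE annotation). In order along it are H2-Oa (chr17:34092340-34095234), H2-DMa (chr17:34119541-34139101), H2-DMb2 (chr17:34143307-34151555), H2-DMb1 (chr17:34153072-34160230), H2-Ob (chr17:34238903-34254414), H2-Ab1 (chr17:34257689-34269419), H2-Aa (chr17:34282744-34287823) and H2-Eb1 (chr17:34305867-34316674), with H2-Aa alone on the minus strand. Ciita lies at chr16:10480059-10528418 and Cd74 on a different chromosome. H2-DMb1 and H2-DMb2 are near-copies of each other, and 13.2% and 12.0% of the 90-base stretches of their transcripts occurred in the other one; reads wholly within such stretches cannot be assigned, and these counts are uncertain to that extent. None of the other members shared a stretch of that length with another member or further class II gene, and no other genes were compared.

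The promoters are shown because Ciita is known to act on class II genes through the boxes marked here. Of the genes shown, H2-Aa and H2-Eb1 moved together over the classes below (correlation 0.98). H2-DMb2 (0.69 and 0.72) and H2-Ob (0.44 and 0.48) followed them less. A link between the boxes and these correlations was not tested. The RefSeq promoter table (GRCm38.p6, 250 bases before to 50 after a start) held 7 of the 10 genes, and H2-Ab1, Cd74 and Ciita had no entry. The core of the Y box, TGATTGG, was found in 6 of the 7 on the sense strand, against 7.82% of the 32851 promoters in the table with it on either strand. X box letters were searched over all promoters on both strands in 2 forms, GATGATGC (0.703% of promoters) and TGACGTCA (1.79%). Of all promoters 0.103% held the Y box core with either of them on the sense strand. In the class II genes X letters were recorded only before a Y box core on the sense strand. The windows below contain 82 bases each, lie outside the annotated exons, and are written 5′ to 3′ on the strand of the gene with the matching letters in capitals.
H2-Aa (chr17:34287847-34287928, minus strand): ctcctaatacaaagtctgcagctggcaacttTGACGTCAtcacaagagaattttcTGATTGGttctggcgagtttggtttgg
H2-Eb1 (chr17:34305751-34305832, plus strand): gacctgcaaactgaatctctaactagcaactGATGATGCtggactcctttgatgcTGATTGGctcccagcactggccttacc
H2-DMb2 (chr17:34145102-34145183, plus strand): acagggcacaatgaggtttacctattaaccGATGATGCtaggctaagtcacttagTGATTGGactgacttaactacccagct
H2-Ob (chr17:34238791-34238872, plus strand): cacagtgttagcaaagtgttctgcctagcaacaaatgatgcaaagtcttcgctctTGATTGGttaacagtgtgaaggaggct
The X letters stood 16 bases before the Y box core in H2-Aa and H2-Eb1 and 17 bases before it in H2-DMb2, and H2-DMb1 had the same letters at the same spacing of 17 bases. H2-Ob and H2-Oa had the Y box core with no exact match to the X letters before it on the sense strand. The H2-Ob window does hold aatgatgc before the Y box core, which differs from GATGATGC in its first letter only. Only the 2 exact forms were searched, so the search cannot show that either gene lacks an X box. Neither start of H2-DMa in the table had the Y box core on either strand, so X letters were not assessed there. These matches describe the windows only.

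Mature B cells were the class with the highest mean level of H2-Aa, H2-Eb1, Cd74, H2-DMb2, H2-Oa, H2-Ob and Ciita. H2-Aa reached 3142 and 5892 CPM in TLR9-/- mice and 3092 and 3829 CPM in WT mice (3989 ± 1312, mean ± SD, n = 4 libraries). Cd74 (chr18:60803848-60812652) reached 17942, 24745, 17445 and 15947 CPM in the same order (19019.5 ± 3910). Within the spread of the libraries the lead over macrophages was not resolved for the chains, since macrophages averaged 3675 CPM of H2-Aa, 3252 of H2-Eb1 and 3186 of H2-Ab1 against 3284 ± 739 and 2471 ± 555 for H2-Eb1 and H2-Ab1 in mature B cells. Macrophages numbered only 85 cells, 8 of them in WT replicate 2, and were left out of all tests; the planned step from classical monocytes to macrophages was therefore not fitted. At the low end H2-Aa averaged 4.3 CPM in NK cells and 41.7 CPM in T lymphocytes, which do not make class II in the mouse.

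**Figure D1:**
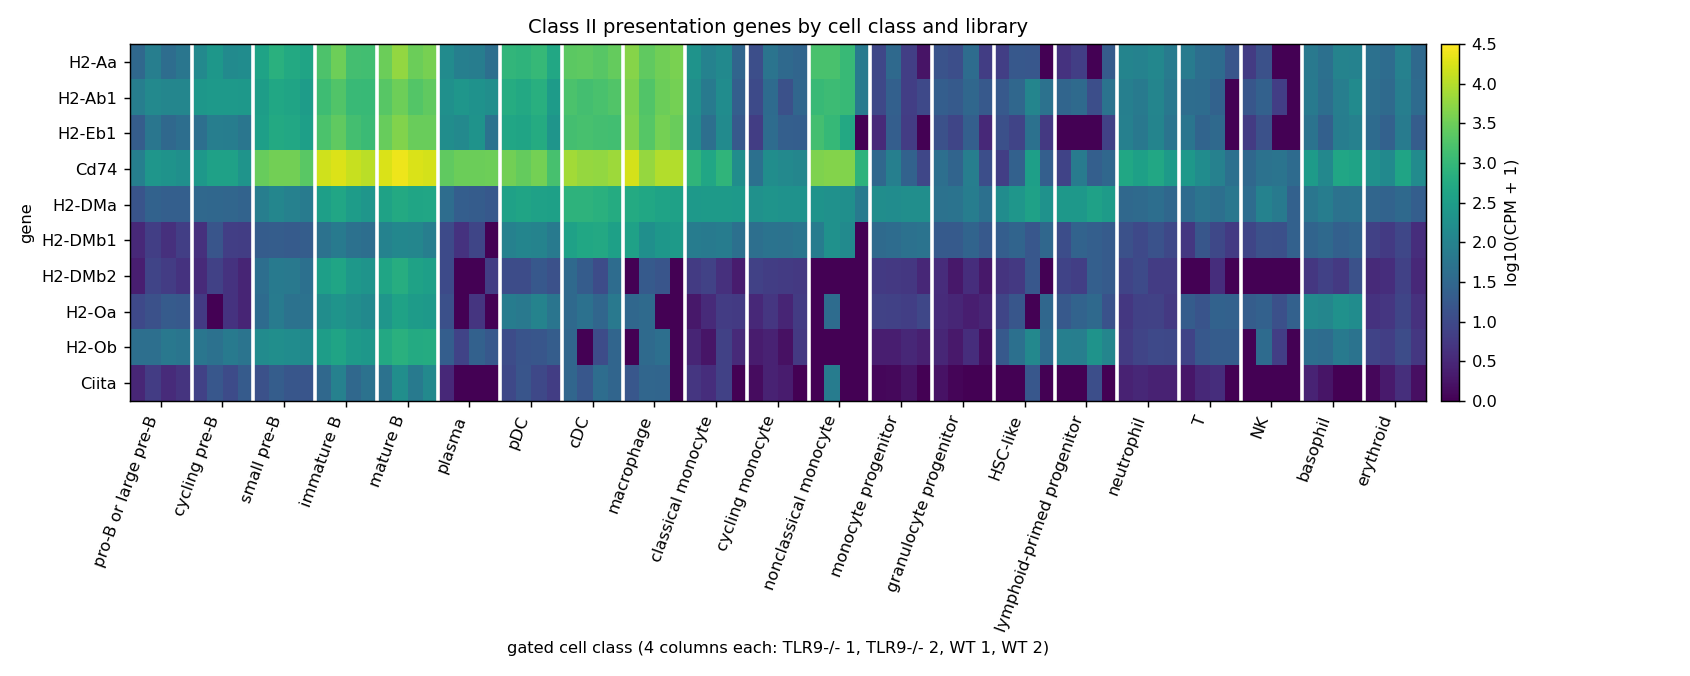
Level of each of the 10 genes (rows) as log10(CPM + 1) in each gated cell class, with 4 columns per class for TLR9-/- 1, TLR9-/- 2, WT 1 and WT 2. Immature and mature B cells, cDCs and macrophages hold the high values of the chains and Cd74, while H2-DMa also stands at 152 to 379 CPM in HSC-like cells, where H2-Aa averaged 9.5 CPM.

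The chains and Cd74 rose and fell together over classes. Across the 80 class and library points of the tested classes the Pearson correlation of log2(CPM + 10) was 0.98 between H2-Aa and H2-Eb1, 0.96 between H2-Aa and H2-Ab1, 0.94 between H2-Aa and Cd74 and 0.80 between H2-Aa and Ciita. The DM and DO genes split: H2-DMa went with H2-DMb1 (0.85), H2-DMb2 with H2-Ob (0.81) and Ciita (0.83), while H2-DMb1 had 0.39 with H2-DMb2 and 0.04 with H2-Ob. Points share libraries and depth, so these coefficients are descriptions. Among 5403 other genes with a mean of at least 20 CPM that marked no gate, those most like the mean of the chains and Cd74 were Lgmn (0.81), a protease of late endosomes, Cd180 (0.79), a surface relative of the Toll-like receptors on B cells, Rnase6 (0.78), Filip1l (0.77) and Sik1 (0.76), followed by Btla, Cd22, Slc15a4, Mcl1 and Ptpn6 (0.75 to 0.68).

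All 10 genes rose at each of the 3 steps tested from pro-B or large pre-B cells over small pre-B and immature B cells to mature B cells. In pro-B or large pre-B cells H2-Aa was at 32.1 and 82.9 CPM in TLR9-/- and 40.1 and 56.6 CPM in WT libraries, and in small pre-B cells at 407, 710, 547 and 423 CPM, with no overlap between the stages. The largest changes among the members at this step were those of Cd74 (174 to 3006 CPM, log2 fold change 4.01 ± 0.14, SE), H2-DMb2 (3.55), H2-Eb1 (3.40) and H2-Aa (3.18 ± 0.13). H2-Ab1 (1.62) and H2-Ob (1.39) moved less and stood at 111 and 51.0 CPM in the earlier stage. All 10 passed at an adjusted p under 0.05 (edgeR quasi-likelihood test with library as a block, Benjamini-Hochberg adjustment over all genes of the step), against 31.7% of all genes tested that rose at this step, and their median log2 fold change was 2.05 against 0.02 for all genes. Cycling pre-B cells lay between the stages for most members (166 CPM of H2-Aa), while H2-Oa was lower there (2.6 CPM) than in pro-B or large pre-B cells (14.2 CPM) and small pre-B cells (52.2 CPM). The rise was uneven over cells: 5% of the small pre-B cells held 48.9% to 69.3% of their H2-Aa, H2-Ab1 and H2-Eb1 UMIs. Their gate asked for no Ms4a1 or Ighd UMI at median depths of 872 to 1423 UMIs. Later B cells with these UMIs missed could enter it, and their part was not tested.

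From small pre-B to immature B cells the log2 rises ran from 1.10 for H2-Ob to 2.53 for H2-DMb2, and all 10 genes passed where 15.6% of all genes rose (median 1.90 against -0.01). Cd74 came to 14811 and 18043 CPM in the TLR9-/- and 13185 and 10829 CPM in the WT libraries at the immature stage. From immature to mature B cells the rises were smaller, from 0.53 for Cd74 to 1.17 for H2-Aa and Ciita, and again all 10 passed, where 5.25% of all genes did (median 1.01 against 0.01); with no library block 5 of the 10 passed. The order of the members thus changed along the way: Cd74 made the largest rise at the first step and the smallest at the last, and Ciita, at 3.4, 15.4, 51.8 and 105 CPM over the 4 stages, kept rising by at least 1.17 at each. Immature B cells also held Fcer2a at 81.2 to 160 CPM, against 217 to 446 CPM in mature B cells, a marker of the later stage; the part of such cells in the immature values was not tested.

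**Figure D2:**
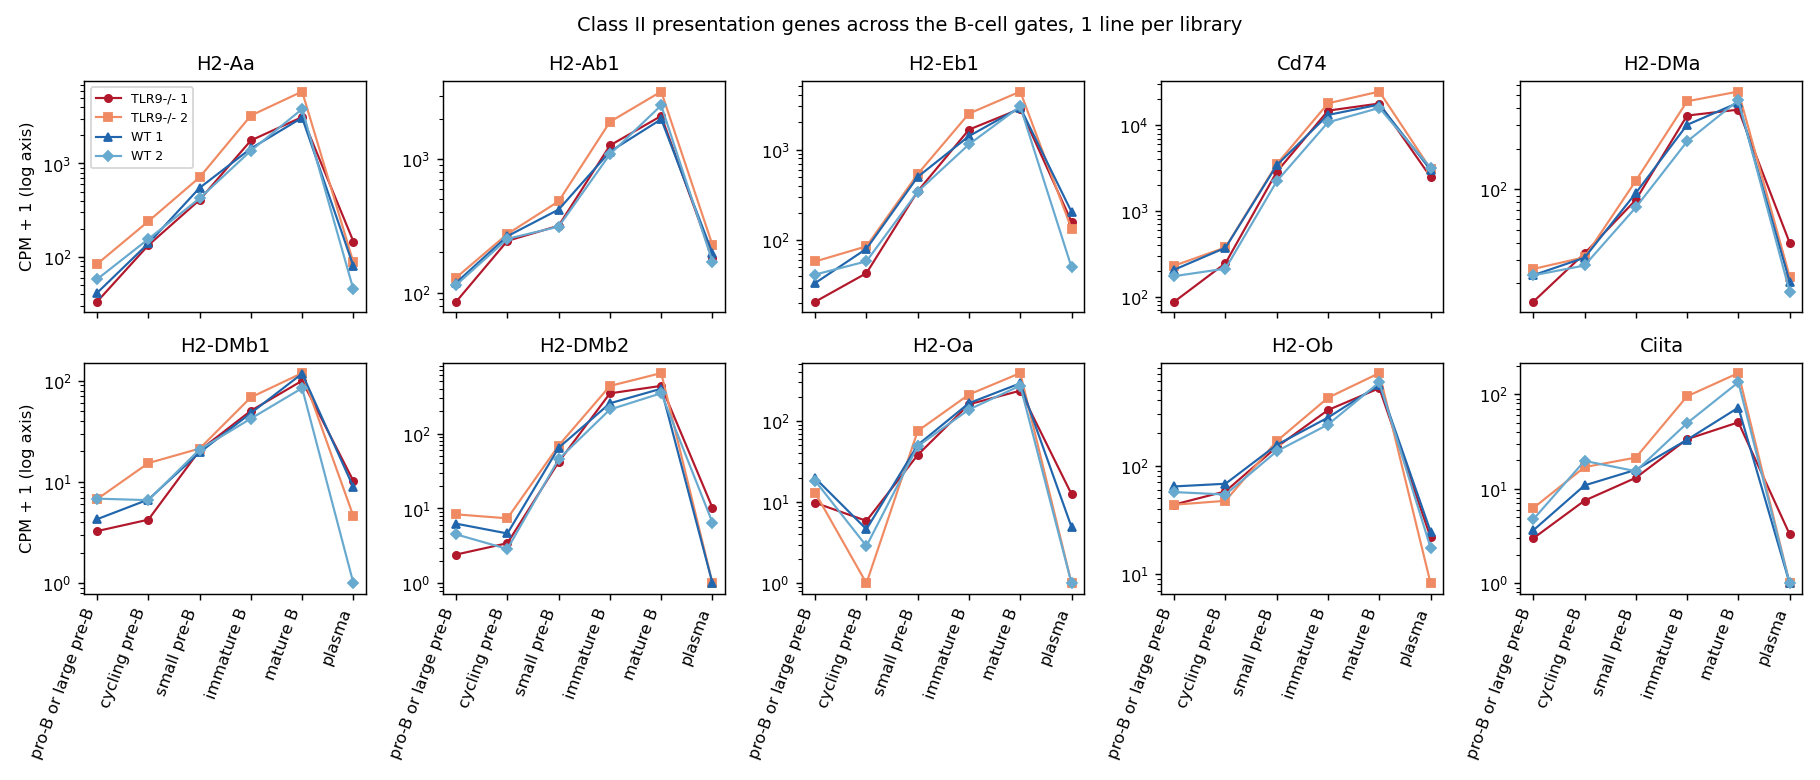
Level of each of the 10 genes as CPM + 1 on a log axis over the gated B-cell classes from pro-B or large pre-B to plasma cells, with 1 line per library (TLR9-/- in red and orange, WT in blues). Every gene is highest in mature B cells and lower in plasma cells, and the line of TLR9-/- 2 is the upper one at the immature and mature stages, as for H2-Aa (5892 CPM in mature B cells against 3092 to 3829 in the others).

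Other genes of the pathway went along only in part. From pro-B to small pre-B cells 11 of 15 tested regulators rose, among them the related ETS-family factors Spib (2.74) and Spi1 (1.61) and the X-box binding subunits Rfxank (0.77) and Rfx5 (0.63), and 1 fell, the Y-box binding subunit Nfyb (-0.49). From small pre-B to immature B cells 3 of 14 rose, including Irf8 (1.07), and Irf4 fell by 1.50. From immature to mature B cells none of 15 rose and Spib fell by 0.90. Of all genes, 31.7%, 15.6% and 5.25% rose at the 3 steps in turn. Of the co-stimulatory genes, Cd40, the receptor for T-cell help, was the 1 tested at the first step and rose by 4.04, and Cd83 (2.39), Icosl (1.71) and Cd40 again (1.23) rose at the second. The ubiquitin ligase March1, which removes class II from the surface, rose by 2.25 and the protease Ctss by 1.35 at that second step. There the protease Ctsb fell by 0.39 and the other 3 of the 6 tested processing genes did not pass. At the first step 4 of 5 processing genes rose. From immature to mature B cells 2 of 5 processing genes, 1 of 3 co-stimulatory genes and 1 further class II gene (1.42) rose.

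Plasma cells, which turn from presentation to antibody secretion, were lower than mature B cells in all 10 genes (14.8% of all genes fell at this step), with a median log2 fold change of -3.57. H2-Aa was at 145 and 86.2 CPM in TLR9-/- and 78.7 and 43.8 CPM in WT plasma cells, with a log2 fold change of -4.21 ± 0.33. H2-DMb2 (-5.42) and Ciita (-5.28) had the largest fitted falls. All plasma cells together held only 5 UMIs of H2-DMb2 and 1 of Ciita, so the size and order of these falls are not resolved. Cd74 stood apart, with 2494, 3091, 3024 and 3197 CPM (2952 ± 313) and a fold change of -1.35 (adjusted p = 0.003, edgeR). Per 100 UMIs of H2-Ab1, plasma cells had 1367 to 1884 UMIs of Cd74 against 628 to 873 in mature B cells. Jchain, the joining chain of secreted antibodies, was at 48584 to 74244 CPM in plasma cells, and the values here depended on the scaling: with library sizes alone all genes shifted by a median of -1.44 and Cd74 by -2.67, against -0.14 and -1.35 with TMM scaling, and all 10 stayed lower either way. Plasma cells numbered 103, 16 to 42 per library. Of the 13 tested regulators 4 fell, Spib (-4.12), Pax5 (-2.96), Irf8 (-2.03) and Spi1 (-0.78), and 2 rose, Irf4 (2.89) and Prdm1 (6.11), the plasma-cell factor that represses Ciita. All 3 tested co-stimulatory genes fell, and of 5 processing genes March1 fell by 4.57 while Ctsb (1.90) and Ctsd (1.02) rose.

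Conventional dendritic cells (cDCs) were higher than plasmacytoid dendritic cells (pDCs) in 8 of the 10 genes, where 11.5% of all genes rose (median 1.39 against -0.02). The largest difference was that of H2-DMb1 (log2 2.26 ± 0.14), followed by H2-Eb1 (1.89), H2-Ab1 (1.74) and H2-Aa (1.66). H2-Aa measured 2343, 2452, 2126 and 2712 CPM in cDCs and 906, 834, 1025 and 497 CPM in pDCs, with no overlap. H2-Oa (-0.67, adjusted p = 0.077) and H2-Ob (0.25, adjusted p = 0.81) did not pass (edgeR), and the call of H2-DMb2 (1.21) was lost with library sizes alone. The cDC gate held 139 cells that carried Cd209a at 350 to 587 CPM and Clec9a at 113 to 211 CPM but Xcr1 at only 0 to 11.7 CPM. All of these are markers of the gate, so their levels do not check it. After each cell was thinned to 1000 UMIs, 40.4% to 55.0% of these cells had a UMI of H2-Aa, H2-Ab1 or H2-Eb1 (46.2% to 60.0% unthinned), against 86.1% to 97.5% of mature B cells. In T lymphocytes, which should lack them, the share was 1.34% to 2.60%; the libraries' median depths before thinning were 3280 to 5917 UMIs in cDCs and 1786 to 2434 in T lymphocytes. Of the 11 tested regulators Spi1 (2.14) and Creb1 (0.83) were higher in cDCs than in pDCs and Spib (-4.27), Irf1 (-1.26) and Irf8 (-0.95) lower, and of 6 processing genes March1 was higher (2.34) and Ctsl (-4.42), Ctsb (-2.29) and Ctsd (-1.33) lower.

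cDCs and mature B cells differed in which peptide-editing genes they carried. Against mature B cells, cDCs were higher in H2-DMb1 (log2 1.92 ± 0.14) and H2-DMa (0.59 ± 0.12) and lower in the other 8 genes (21.1% of all genes were higher and 23.0% lower; median -1.47 against -0.07). The lower ones ran from H2-Ab1 (-0.70) and H2-Aa (-0.82) over Cd74 (-1.64) and Ciita (-2.15) to H2-Oa (-2.92), H2-DMb2 (-4.35) and H2-Ob (-5.35). H2-DMb1 was at 379 and 477 CPM in TLR9-/- and 522 and 359 CPM in WT cDCs against 83.5 to 118 CPM in mature B cells. H2-DMb2, its near-copy, was at 33.7, 19.6, 10.0 and 37.8 CPM in cDCs against 346 to 645 CPM in mature B cells. The genotypes overlapped in both genes in cDCs. As the shares above show, part of the gated cDCs had no UMI of H2-Aa, H2-Ab1 or H2-Eb1, unlike most mature B cells. The cDC levels are therefore means over cells with and without such UMIs. What the cDCs without them were was not tested. Of 6 tested processing genes Ctsl (2.38), Ctsb (1.89) and Ctss (0.35) were higher in cDCs, all 3 tested co-stimulatory genes were lower (Cd83 by -5.62), and of 11 regulators 3 were higher, led by Irf8 (2.01), and 4 lower, led by the B-cell factor Pax5 (-9.93).

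**Figure D3:**
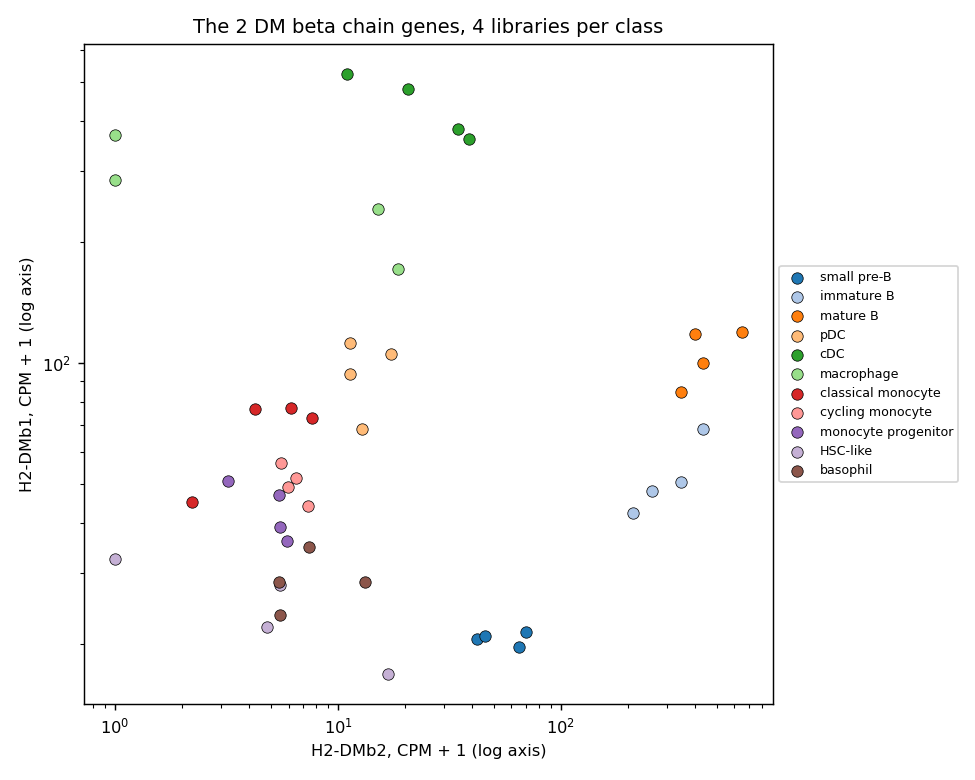
H2-DMb1 (vertical) against H2-DMb2 (horizontal) as CPM + 1 on log axes in 11 gated classes, with 1 point per library. Mature B cells lie far to the right (346 to 645 CPM of H2-DMb2), while cDCs lie at the top (359 to 522 CPM of H2-DMb1) and to the left of them.

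Ratios of 2 members within a class do not depend on the size of the class. For each 100 UMIs of H2-DMb2 there were 14.3 to 29.3 UMIs of H2-DMb1 in immature and mature B cells, 569 to 1076 in pDCs, 950 to 5200 in cDCs and 1081 to 3600 in classical monocytes. The counts behind the wide ranges were small, with 1 to 8 UMIs of H2-DMb2 per library in cDCs and 1 to 16 in classical monocytes, and both upper ends rest on a single UMI. For each 100 UMIs of H2-DMa there were 59.1 to 72.8 of H2-Oa in mature B cells, 26.7 to 60.0 in T lymphocytes, 0.0 to 15.0 in cycling pre-B cells, 15.2 to 27.2 in pDCs, 4.11 to 11.1 in cDCs and 0.357 to 1.95 in classical monocytes. The ranges of mature B cells and cDCs did not overlap for either ratio.

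Class II chains and Cd74 were higher at each of the 2 monocyte steps tested. From monocyte progenitors to classical monocytes 6 of the 7 tested genes rose (34.7% of all genes) and H2-Oa fell (-1.30; 34.5% of all genes fell), with a median of 2.88 against 0.01; the call of H2-Oa was lost with stricter gates. Cd74 rose by 3.80 ± 0.21, H2-Eb1 by 3.07, H2-Aa by 3.02 and H2-Ab1 by 2.88, while H2-DMa (0.78) and H2-DMb1 (0.81) rose less. H2-DMa was the even one, at 263, 280, 277 and 272 CPM in classical monocytes (273 ± 7.41) and 161 ± 6.9 CPM in their progenitors. All 6 tested processing genes rose at this step as well, with March1 by 4.22, Lgmn by 3.97 and Ctss by 3.33. So did the 3 tested co-stimulatory genes, and of 13 regulators 7 rose, led by Irf4 (4.85) and Bcl6 (2.88), and 2 fell, of which Irf8 had served to gate the progenitors.

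From classical to nonclassical monocytes H2-Aa (2.96 ± 0.24), H2-Eb1 (2.93), H2-Ab1 (2.86) and Cd74 (2.36) rose and H2-DMa (-0.96, adjusted p = 0.070) and H2-DMb1 (0.39, adjusted p = 0.76) did not pass (edgeR), where 2.99% of all genes rose (median of the 6 genes 2.61 against -0.25). Of the 6 tested processing genes 0 passed, and of 7 regulators Bcl6 (2.70) rose and Irf8 (-1.27) fell. The 65 nonclassical cells carried Ace, a marker of their gate, at 608 to 1051 CPM. They held no Cd79a, and the gate barred cells with 3 or more UMIs of B-lineage markers. WT replicate 2, with 10 of the nonclassical cells, had 67.9 CPM of H2-Aa and 0 of H2-Eb1 against 1079 to 1597 CPM of H2-Aa in the other libraries. That library was also the lowest for H2-Aa in classical monocytes (28.1 CPM against 97.0 to 206 CPM).

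Few classical monocytes held most of the class II transcript. The 5% of cells with the most chain UMIs (H2-Aa, H2-Ab1 and H2-Eb1 together) contained 87.3% to 98.4% of all chain UMIs of the class, against 11.5% to 17.9% in mature B cells. The share was at least 97.1% in every library of cycling monocytes, 61.5% to 99.1% in monocyte progenitors and 48.9% to 69.3% in small pre-B cells. The 61.5% was that of WT replicate 2, which had 0 progenitors with 3 or more chain UMIs. Such a share also rises where UMIs are sparse, and the classes were not matched for level. Between 91.7% and 92.5% of classical monocytes had no chain UMI. The cells with 3 or more chain UMIs numbered 31 and 22 in TLR9-/- mice and 14 and 5 in WT mice, or 5.27%, 3.89%, 4.40% and 2.13% of the class. The thinned share of classical monocytes with a chain UMI was 5.58%, 4.82%, 5.67% and 3.76%, above the 1.34% to 2.60% of T lymphocytes at the same depth, and the genotypes overlapped (7.48% to 8.30% unthinned, with at most 9 cells of a library too shallow to thin).

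These cells differed from the classical monocytes with no chain UMI in more than the chains that picked them, at a like depth (2986 to 4455 against 2885 to 4248 UMIs per cell). Cd74 was at 4286 to 17132 CPM against 56.3 to 141 CPM, H2-DMa at 490 to 867 against 242 to 259 CPM and H2-DMb1 at 245 to 659 against 38.9 to 52.2 CPM. Cd209a, a lectin of monocyte-derived and conventional dendritic cells, was at 469 to 612 against 12.1 to 24.0 CPM. Ccr2, the chemokine receptor through which monocytes leave the marrow, was at 1255 to 1599 against 705 to 830 CPM and Ly6c2 at 1286 to 3804 against 3226 to 6080 CPM, both of them markers of the gate. Cd79a was at 0 in 3 libraries and at 23.9 CPM in WT replicate 1, and C1qa at 0 in 3 and at 61.2 CPM in WT replicate 2. The monocytes with no chain UMI were 91.7% to 92.5% of the class. Their H2-DMa therefore had to lie close to the 263 to 280 CPM of the whole class.

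**Figure D4:**
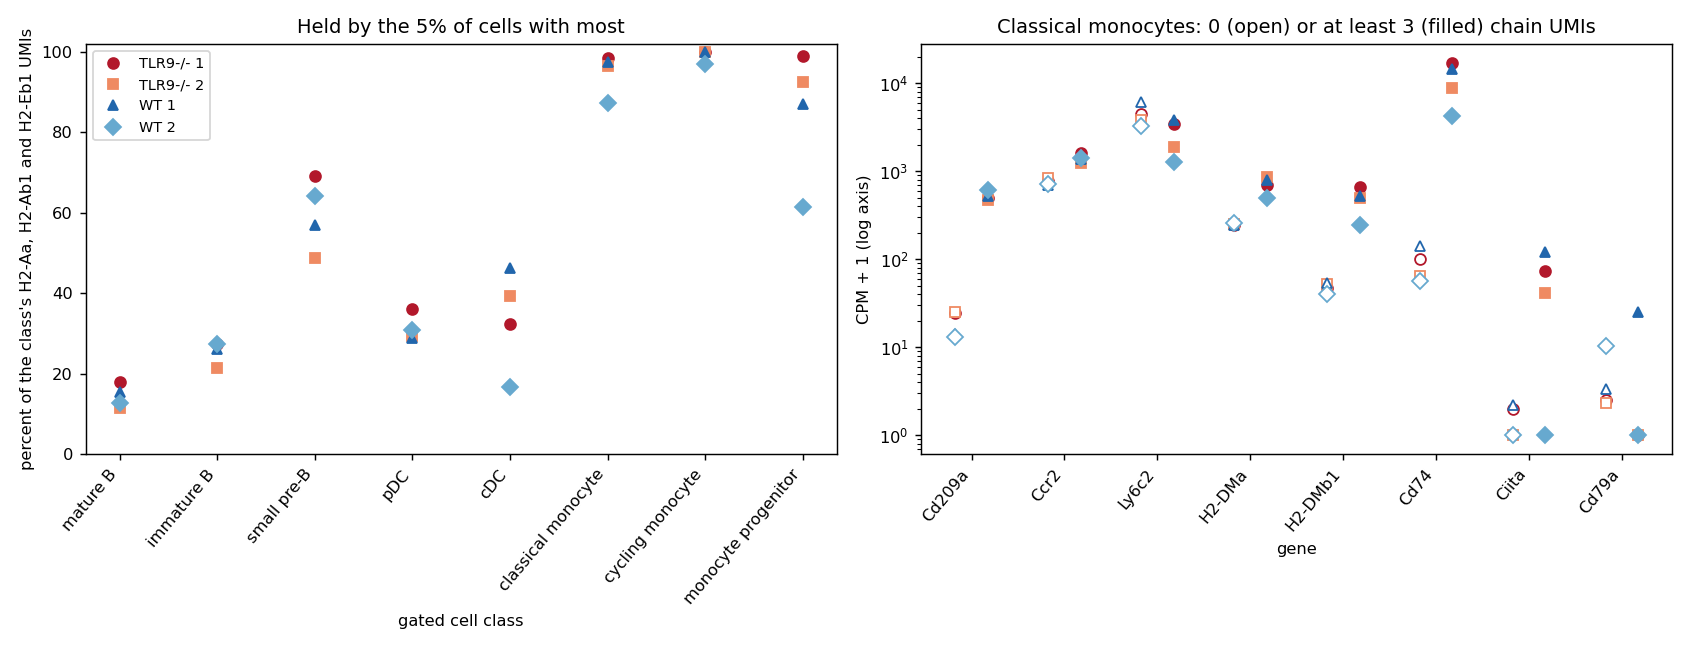
Left, percent of a class's chain UMIs (H2-Aa, H2-Ab1 and H2-Eb1) held by the 5% of its cells with the most, 1 point per library; right, CPM + 1 on a log axis of 8 genes in classical monocytes with 0 (open) or at least 3 (filled) chain UMIs. Classical monocytes lie at 87.3% to 98.4% against 11.5% to 17.9% in mature B cells, and Cd209a and Cd74 separate the filled from the open points.

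Early progenitors carried the alpha chain of the editor with few transcripts of H2-Aa and H2-Eb1. H2-DMa was at 152 and 232 CPM in TLR9-/- and 379 and 197 CPM in WT HSC-like cells and at 289 ± 56.5 CPM in lymphoid-primed progenitors, near the 273 CPM of classical monocytes. H2-Aa averaged 9.5 and 7.0 CPM and H2-Eb1 17.7 and 1.6 CPM in the same classes. H2-Ab1 was higher, at 52.1 CPM (17.1 to 110) in HSC-like cells and 31.1 CPM (11.2 to 50.3) in lymphoid-primed progenitors. Without cells that held a B-cell marker H2-Ab1 averaged 57.5 and 44.5 CPM there. H2-Ob was also present in the early classes, with 86.9, 84.6, 201 and 113 CPM in lymphoid-primed progenitors and 17.1, 45.0, 126 and 35.9 CPM in HSC-like cells. It averaged 1.6 CPM in both granulocyte and monocyte progenitors. WT replicate 1, the highest library for H2-DMa and H2-Ob in HSC-like cells, had only 15 such cells with 63349 UMIs. The same library had 16 lymphoid-primed progenitors, so its values in both classes rest on few UMIs. From HSC-like cells to granulocyte progenitors H2-Ob (-4.53 ± 0.42) and H2-DMa (-1.83 ± 0.14) fell, 2 of 7 tested (15.7% of all genes; median -0.26 against -0.01). From HSC-like cells to monocyte progenitors H2-Ob (-4.57) and H2-Ab1 (-1.11) fell and H2-DMb1 (0.77, lost with stricter gates) rose, of 5 tested (16.3% and 18.1% of all genes), and H2-DMa did not pass (-0.27, interval -0.56 to 0.01). Of the regulators, Spi1 rose at both steps (1.34 and 1.48) and Irf1 (-0.97 and -1.29) and Nfya (-1.05 and -0.83) fell at both, and of the processing genes Ctsb rose at both (1.54 and 1.91).

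Outside the B-cell classes, basophils had the highest mean of H2-Oa, the alpha chain of DO. It was at 129, 116, 189 and 155 CPM (147 ± 32.6), and only mature and immature B cells had a higher mean. For each 100 UMIs of H2-DMa there were 147 to 382 of H2-Oa, above the 59.1 to 72.8 of mature B cells. Basophil libraries also held Cd79a at 24.1 to 286 CPM, so cells with any UMI of 5 B-cell markers were removed: H2-Oa then measured 143 to 205 CPM and H2-Ob 39.1 to 48.3 CPM, and H2-DMb2 and Ciita had no UMI. H2-Aa in these cells was 1.4 to 53.7 CPM, against 44.1 to 104 CPM before. The same removal took neutrophils to 38.7 to 70.2 CPM of H2-Aa.

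The study compared TLR9-/- with WT marrow, and this comparison was made for each member within each class. Of the pairs of a member and 1 of the 20 tested classes, 140 passed the filter on low counts. In 0 of these did the genotypes differ at an adjusted p under 0.05 (edgeR quasi-likelihood test, 2 against 2 libraries), where 0.278% of all gene and class pairs passed. DESeq2 called 0 too. With the replicate number as a block, or with no filter on low counts, members were called in some classes, as given at the end. At an unadjusted p under 0.05 there were 21 pairs by edgeR (15.0% of the pairs, against 6.56% of all gene and class pairs). DESeq2 gave 10, for which the share of all pairs was not totalled. The 95% interval of the log2 fold change lay within -1 and 1 in 63 pairs and reached past it in 77, with bounds from -2.52 to 4.96, so the data did not bound the difference to within 1 log2 unit in those 77. Each library was 1 mouse per the study's methods, and with 2 mice a genotype the p-values rest on a spread shared over genes.

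In immature B cells 8 of the 10 genes, all but H2-Oa and Ciita, were higher in both TLR9-/- libraries than in both WT libraries, where 17.0% of all genes were. In the test 0 of 10 passed (0.131% of all genes did). At an unadjusted p under 0.05 there were 5 (edgeR), where 6.56% of gene and class pairs over the 20 classes were. The median log2 fold change of the 10 was 0.56 against -0.01 for all genes. H2-Aa was at 1764 and 3259 CPM in TLR9-/- and at 1447 and 1370 CPM in WT libraries (log2 0.82 ± 0.28, SE, adjusted p = 0.73, interval 0.22 to 1.43). H2-DMb2 was at 345 and 434 against 254 and 210 CPM (0.74 ± 0.25, adjusted p = 0.76), and the log2 fold changes of H2-Eb1, H2-DMa, H2-Ob and Cd74 were 0.70, 0.60, 0.53 and 0.44. The high library was TLR9-/- replicate 2: between libraries of the same number the log2 ratio of H2-Aa was 0.29 for number 1 and 1.25 for number 2. Fcer2a in immature B cells was at 99.0 and 160 CPM in TLR9-/- and 81.2 and 91.9 CPM in WT libraries, highest in that same library, and its part in the difference was not tested. The thinned share of immature B cells with a chain UMI was 73.3% and 72.5% in TLR9-/- and 63.8% and 54.2% in WT libraries (two-sided exact permutation p = 0.33, and 2 against 2 mice can give none smaller). Thinning left out 193 and 34 cells in TLR9-/- and 308 and 130 in WT libraries, and the unthinned shares were 63.0% and 73.4% against 59.7% and 55.0%.

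**Figure D5:**
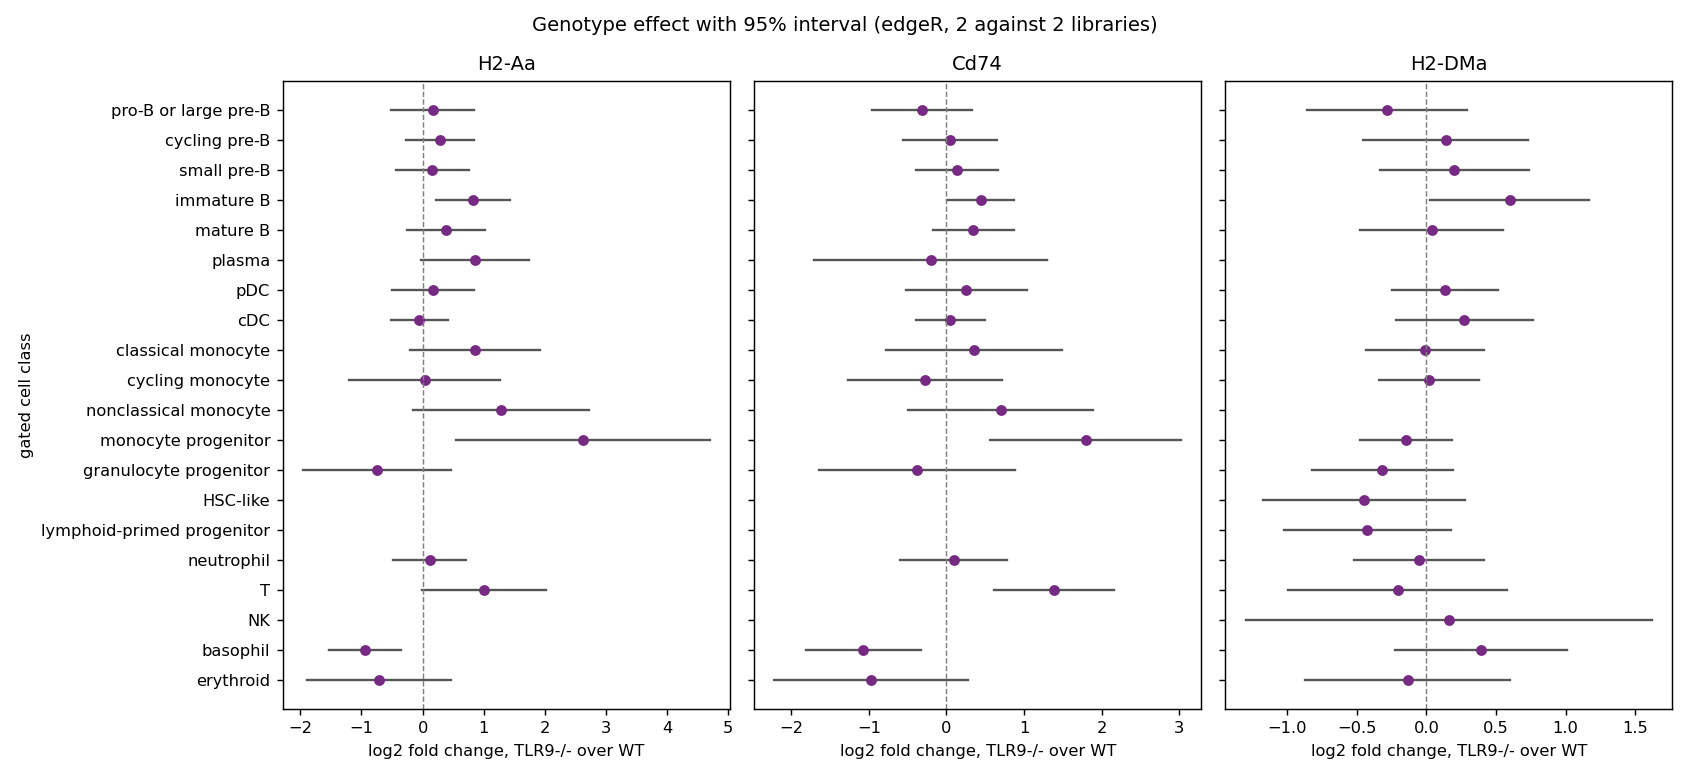
Log2 fold change, TLR9-/- over WT, of H2-Aa, Cd74 and H2-DMa in each class where the gene was tested (points) with its 95% interval (bars) from the edgeR fit; the 3 horizontal axes differ. The interval of H2-Aa runs from -0.52 to 0.42 in cDCs and from 0.55 to 4.70 in monocyte progenitors, and no point has an adjusted p under 0.05.

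In the other antigen-presenting classes no member passed the test between genotypes either (edgeR). In mature B cells, where 0 of 10 passed (0.147% of all genes), H2-Aa differed by 0.38 (interval -0.25 to 1.01) and Cd74 by 0.35 ± 0.24. In pDCs (0 of 10; 0.195%) the fold changes of H2-Aa and Cd74 were 0.16 and 0.26. In cDCs none of the 6 tested genes passed, nor did any gene at all (0.0%), and H2-Aa differed by -0.05 with an interval of -0.52 to 0.42, which lies within 1 log2 unit either way. In classical monocytes (0 of 6; 0.385%) H2-Aa differed by 0.85 with an interval of -0.21 to 1.91, with WT replicate 2 the lowest of the 4 libraries. The genotype difference in classical monocytes minus that in mature B cells passed for 0 of the 10 genes (0.161% of all genes). At an unadjusted p under 0.05 there were 3 of them (edgeR), beside 438 of the 8719 genes tested. For H2-Aa the difference was 0.57 (interval 0.15 to 1.00, adjusted p = 0.63, edgeR). It ran from -0.48 without TLR9-/- replicate 1 to 2.21 without WT replicate 1.

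For H2-Aa, monocyte progenitors and basophils had the largest differences up and down. In monocyte progenitors H2-Aa was at 7.9 and 33.8 CPM in TLR9-/- and 5.9 and 0.7 CPM in WT libraries (2.63 ± 0.93, adjusted p = 0.59) and Cd74 differed by 1.79 ± 0.55 (adjusted p = 0.48), and 0 of 8 tested genes passed (0.315% of all genes). Cells with 3 or more chain UMIs numbered 5 and 15 against 2 and 0 there, or 1.33% and 4.31% against 1.80% and 0.0% of the class, so the shares overlapped between genotypes. Where present they held the pDC gene Siglech at 160 to 256 CPM against 0.19 to 5.61 CPM in progenitors with no chain UMI. Igkc, an antibody chain gene, was at 3.96 to 103 against 0.64 to 4.01 CPM, and C1qa at 0.0 to 103 against 0.0 to 0.64 CPM. In each library that had such cells they were also deeper (14584 to 33656 against 12224 to 21960 UMIs per cell). What these cells were was not tested. In basophils H2-Aa was at 63.9 and 44.1 against 104 and 97.4 CPM (-0.94 ± 0.27, adjusted p = 0.21) and Cd74 differed by -1.07 ± 0.34, and 0 of 8 passed (0.13% of all genes), although 6 of 9 genes lay lower in both TLR9-/- libraries (18.3% of all genes). The B-cell marker Cd79a went the same way, at 77.3 and 24.1 against 286 and 137 CPM. Without the cells that held a B-cell marker the basophil differences turned to 0.82 for H2-Aa and 1.15 for Cd74, but the genotypes overlapped. H2-Aa was then at 53.7 and 1.4 CPM in TLR9-/- and 9.8 and 21.5 CPM in WT libraries, on 1 to 34 UMIs. Cd74 was at 204 and 9.6 against 55.4 and 32.2 CPM. TLR9-/- replicate 1 was the highest library and TLR9-/- replicate 2 the lowest for both genes.

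Over all cells of a library together, H2-Aa was at 213 and 329 CPM in TLR9-/- and 355 and 299 CPM in WT libraries, and 0 of 10 genes passed (0.268% of all genes). H2-Ob differed by -0.78 ± 0.18 (adjusted p = 0.15) and H2-Ab1 by -0.49 ± 0.18 (adjusted p = 0.27). In such a sum, fewer cells of a class and less RNA per cell cannot be told apart. The B-lineage classes supplied 39.3% and 62.3% of all H2-Aa UMIs in TLR9-/- and 50.8% and 72.2% in WT libraries, but 11.4% and 16.7% against 25.6% and 32.5% of those of H2-DMa. Monocytes and macrophages supplied 24.5% and 20.6% against 15.2% and 14.7% of the H2-DMa UMIs. The source of a gene's UMIs thus differed between the chains and the editor in every library.

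H2-Eb2, a beta chain gene next to H2-Eb1 that was not a member, had a larger log2 fold change than any member in immature and mature B cells but did not pass the test. It was at 15.5 and 29.8 CPM in TLR9-/- and 5.72 and 3.10 CPM in WT immature B cells (log2 2.33 ± 0.60, adjusted p = 0.38, edgeR) and at 33.6 and 52.0 against 19.4 and 22.0 CPM in mature B cells (1.08 ± 0.33, adjusted p = 0.58). The levels did not overlap between genotypes in either class, on 37 and 138 UMIs in all.

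Among the other genes of the pathway, the regulator, processing and co-stimulatory lists gave a genotype difference past the test in 2 places, both for Ctsl, a cathepsin, which was higher in TLR9-/- classical monocytes (1.89) and cycling monocytes (1.53). Of the regulators and co-stimulatory genes 0 passed in any class (edgeR). Ctsl is the cathepsin of thymic epithelium and macrophages, while Ctss serves most other presenting cells.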

How the data were processed

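BMNCs of 2 TLR9-/- and 2 WT mice were profiled by 10x 5′ single-cell RNA-seq. The authors aligned and counted the reads with Cell Ranger (version 3.0.1 per the file headers; the submitters' processing notes also name STAR and Seurat 2.3.4, build mm10), and the deposited filtered matrices hold raw UMI counts per gene and cell, with no normalization. Sampling depth and stray transcripts therefore remain in the values. Cells with 200 to 10000 genes and at most 10% mitochondrial UMIs were kept, reading the limit in the study's methods as a fraction. No doublet caller was run; the gates of most classes bar cells with 3 or more UMIs of B-lineage markers, and levels were also recomputed without cells carrying any B-cell marker.

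Cells were assigned to 21 classes by UMI gates on marker genes, with none of the members in a gate, and UMIs were summed per library and class. A class was tested when each library had at least 10 cells, which left 20. Counts were fitted with edgeR 4.0.16 (R 4.3.3; TMM scaling, filterByExpr, glmQLFit and glmQLFTest) on all genes that passed the filter, with genotype alone for the comparison of genotypes and with library as a block between classes of the same mouse, and p-values were adjusted by the Benjamini-Hochberg method over all genes of a fit. Intervals are 95% and rest on the fit's degrees of freedom. Levels are plain CPM. Shares of cells with a UMI are expected shares after thinning to 1000 UMIs, leaving out shallower cells, and were compared by exact permutation tests. The script was tested on simulated data. DESeq2 1.42.0, library sizes alone, no low-count filter, stricter gates, cells without B-cell markers, the replicate number as a block and leaving out each library were the alternatives. Python 3.11.15, numpy 2.4.6, scipy 1.17.1 and pandas 2.3.3 were used. The members and gene lists were chosen with earlier results of these data known. All 10 members are described in every class they were tested or measured in, and the 10 genes most like them were taken by the highest correlation. Of the processing genes, Ifi30 was not analysed here. Of the other class II loci listed, H2-Eb2 alone passed the filter, in 2 classes and over all cells.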

Additional observations from a re-analysis of the deposited data

Results flagged for a closer look

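Among the classes in which a gene passed the filter on low counts, 8 of the 10 genes had 1 class with both TLR9-/- libraries above the WT libraries and another with both below them. In any single class 15.2% to 23.8% of all genes lay above and 11.6% to 21.2% below. The share of all genes with both states over the classes was not counted, so the 8 genes have no background. Neither the differences between classes nor any cause was tested. H2-Aa had a log2 fold change (TLR9-/- over WT) of 2.63 in monocyte progenitors and -0.94 in basophils, and Cd74 had 1.79 and -1.07 in the same classes. Without the cells that held a B-cell marker the basophil values turned to 0.82 for H2-Aa and 1.15 for Cd74. The genotypes then overlapped, with TLR9-/- replicate 1 the highest library and TLR9-/- replicate 2 the lowest for both genes. H2-Eb1 had 1.94 in nonclassical monocytes, where WT replicate 2 had 0 UMIs, and -1.25 in basophils. H2-Ab1 had 1.23 in T lymphocytes and -1.39 in HSC-like cells. Of the editor and inhibitor genes, H2-DMa had 0.60 in immature B cells and -0.42 in lymphoid-primed progenitors, H2-DMb1 0.40 in immature B cells and -0.45 in monocyte progenitors, H2-DMb2 0.74 in immature B cells and -0.49 in pDCs, and H2-Ob 0.53 in immature B cells and -0.87 in T lymphocytes. None of these passed the test within its class at an adjusted p under 0.05 (edgeR).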

How the results depend on the processing

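Of the 74 differences between classes that passed the test, 64 kept their direction and their call under every alternative run. Of 524 alternative values 21 lost the call and 0 reversed. Counts of genes called in this section are counts of the 10 class II genes. The immature to mature B step kept 5 of its 10 calls with no replicate block between classes of the same mouse. H2-Oa from monocyte progenitors to classical monocytes was lost with stricter gates (0 genes down), and cells with no B-cell marker UMI also left 0 genes down; leaving out a library gave 0 to 1. From pDCs to cDCs 1 gene was down with library sizes alone, and 0 to 1 when a library was left out. From HSC-like cells to granulocyte progenitors 1 gene was up without B-marker cells. From HSC-like cells to monocyte progenitors 0 genes were up with stricter gates, 1 was down with no replicate block or without B-marker cells, and leaving out a library gave 0 to 2 up and 1 to 3 down. H2-Ob from pDCs to cDCs ran from -0.75 without TLR9-/- replicate 1 to 0.86. The causes were not tested.

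Replicate numbers are shared by the genotypes, but the labels do not tie them to the 2 experiments, and with 2 pairs they cannot be shown to pair mice; deviations of same-numbered libraries had correlations of 0.04 to 0.48 over classes. With the replicate number as a block, 1 gene was called in pro-B or large pre-B cells and 2 in classical monocytes. T lymphocytes and all cells together had 1 each, and the other 17 comparisons of genotypes had 0. The block also raised the calls among all 9603 genes tested in pro-B or large pre-B cells, from 80 to 441. With no filter on low counts 3 genes were called in monocyte progenitors and 3 in basophils. HSC-like cells, T lymphocytes and erythroid cells had 1 each. Without B-marker cells 1 was called in monocyte progenitors. Whether the class II genes were called more often than other genes under these alternatives was not tested. DESeq2 called 0.

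Leaving out 1 library leaves a single mouse in 1 genotype, which is then assumed to vary like the others. The class II genes called then depended on the library left out in B-cell, monocyte, progenitor, T, basophil and erythroid classes. Only effect sizes are given for these fits. With a library left out, H2-Aa ran from -0.16 (without TLR9-/- replicate 2) to 0.77 in mature B cells and from -0.30 (without WT replicate 2) to 0.83 in pDCs, where Cd74 ran from -0.27 (without WT replicate 2) to 1.06. In cDCs H2-Aa ran from -0.22 to 0.15 and was 0.058 with no filter, and Cd74 ran from -0.070 to 0.19. Cd74 in classical monocytes ran from -0.40 (without WT replicate 2) to 2.11 (without WT replicate 1). In basophils without B-marker cells H2-Aa was 0.82 and Cd74 1.15, with the levels of the genotypes overlapping for both.

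The difference between classical monocytes and mature B cells had 1 to 4 genes called with a library left out. H2-Aa ran from -0.48 without TLR9-/- replicate 1 to 2.21 without WT replicate 1, Cd74 from -0.69 without WT replicate 2 to 1.63 without WT replicate 1, and H2-Eb1 from -1.31 without TLR9-/- replicate 1 to 2.07 without WT replicate 1. The difference in the share of cells with a chain UMI was 0.62 percentage points in pDCs without B-marker cells and -0.24 in classical monocytes unthinned. With 10 to 22 cells per library in nonclassical monocytes, depth limits what those classes can show.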
